A study of Homo sapiens with 4 samples.

Results

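Circular RNAs built from 2 to 5 exons of a single gene were described here. A circle belonged to this set when the deposited table gave it the type exon, named 1 gene, listed 1 isoform of 2 to 5 exons outside the mitochondrial genome, and held at least 1 count over the 4 libraries. There were 22100 such circles among 190152 detected circles of all kinds (11.6%), and they came from 5226 host genes. They held 210445 counts, which was 12.4% of all counts. Among the 91556 exon circles that named 1 gene they made up 24.1%.

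The cells of every library were MDA-MB-468, an epithelial line established from human breast cancer, in a derivative made radioresistant by 50 Gy of irradiation given in fractions. The groups were 2 control libraries with the hairpin shCtrl and 2 knockdown libraries with a stable hairpin against HNRNPL, named shHNRNPL-1 in the extraction protocol. Only 1 hairpin and 1 resistant derivative of 1 line were sampled, and the labels call the libraries biological replicates without saying how the cultures were separated. The study asked which circular RNAs depend on HNRNPL. Random-primed cDNA was made with a reverse transcriptase that can go around a circle repeatedly, amplified by rolling-circle synthesis and read on a nanopore instrument.

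A circular RNA forms when the end of an exon is joined backwards to the start of the same or an upstream exon, a reaction called back-splicing. The exons between the joined ends are usually spliced together in the normal way, so a circle of several exons records both the back-splice and the internal splices. HNRNPL is an RNA-binding protein that prefers CA-rich RNA, regulates alternative splicing and has been tied to the formation of circular RNA in other cells.

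At a back-splice, the letters AG lie just before the first exon of the circle and GT just after its last exon when both ends are ordinary splice sites. The table also gives the run of bases that is the same at both ends, so that the junction can be placed at more than 1 position within it. Examples of long runs, from circles with AG and GT ends, are shown because in such circles the exact junction cannot be placed within the run. Capitals mark AG or AGGT in the run, each written 5′ to 3′ as deposited, with GRCh38.p14 named as the build in the submitters' processing notes.
LYST chr1:235791828-235801070 minus: cagaAGGTttcagtg
PRKD3 chr2:37267430-37272432 minus: tattttacAG
OSBPL11 chr3:125529375-125547592 minus: attcAGGTa
CENPJ chr13:24909790-24913091 minus: ctacAGGTg
AHCTF1 chr1:246849615-246852038 minus: caaaAGGTa
RSL1D1 chr16:11846501-11850418 minus: ttgcAGGT
ADGRV1 chr5:90627211-90629539 plus: acAGGTac

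Among these 7, RSL1D1, a ribosome-biogenesis protein, had the most counts, with 102 on a circle of 4 exons and 530 nt. The entries of LYST and OSBPL11 carry an asterisk, a mark described below. The LYST run of 15 nt rested on 2 counts, and the PRKD3 run of 10 nt on 9. Such long runs were rare: 12 circles of the set had 9 nt or more. Of circles of 2 to 5 exons with AG and GT at their ends, 24.4% had no shared run and the median run was 2 nt. The most frequent runs were AG alone (19.1%), g alone (18.4%) and AGG (9.08%). The run held AG in 45.7% and the whole AGGT in 7.40% of these circles.

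Ordinary AG and GT ends were given for 90.8% of the 22100 circles and 96.3% of their counts. The table marks some of these entries with an asterisk, whose meaning is not given in the sources used here. It stood on 8627 of the 22100 circles but on 17.1% of counts. The marked circles differed from the unmarked ones in their ends and lengths. AG and GT ends were given for 81.7% of the marked and 96.7% of the unmarked circles. The median length was 997 nt with the mark against 647 nt without it, and the median last exon was 480 nt against 142 nt. At least 1 end was shared with another detected circle of any kind for 37.4% of the marked circles and 91.2% of the unmarked ones. An exon block under 20 nt occurred in 227 of the 8627 marked circles and in 6 of the 13473 unmarked ones. These are descriptions of the catalogue, with no test.

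Counts were spread nearly evenly over the 4 exon numbers, while the number of circles increased. There were 4169 circles of 2 exons, 5068 of 3, 6202 of 4 and 6661 of 5, with 54886, 52220, 49217 and 54122 counts. Beyond the edges of the set, single-exon circles held 130541 counts over 14699 circles, and circles of 6 exons held 51576 counts over 6311 circles. Counts per exon number thus dropped between 1 and 2 exons and stayed nearly level from 2 to 6, whereas the number of different circles rose from 2 to 5 exons.

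**Figure D1:**
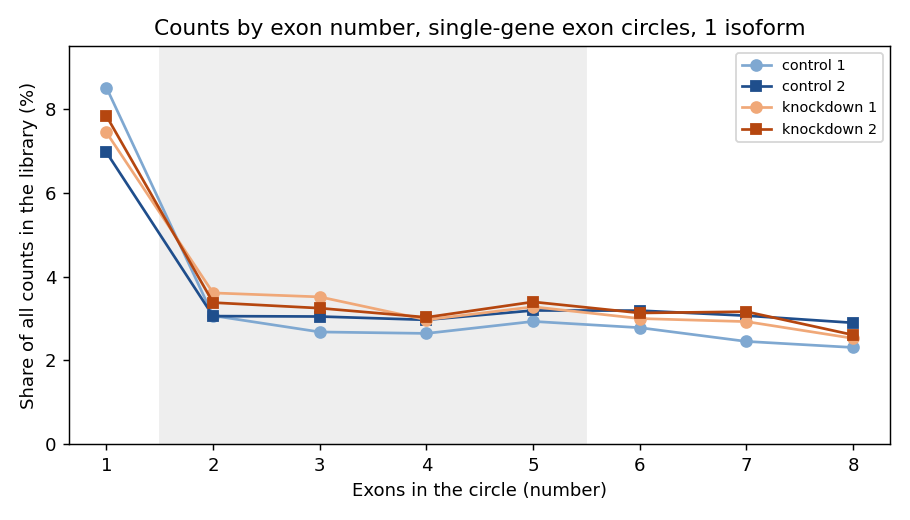
Share of all counts in a library (percent, vertical axis) by the number of exons in the circle (horizontal axis), 1 line a library, for exon circles of 1 gene and 1 isoform. The grey band marks 2 to 5 exons, where every library lies between 2.64% and 3.61%; single-exon circles lie between 6.96% and 8.51%.

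Circles of 2 exons were the longest of the set, with a median of 996 nt, against 662, 648 and 752 nt for 3, 4 and 5 exons. Most of that length lay in 1 exon: the longer exon held a median of 87.2% of a 2-exon circle. The median last exon was 418 nt in 2-exon circles and 174, 151 and 144 nt in circles of 3, 4 and 5 exons. First exons had medians of 162, 135, 126 and 123 nt, and inner exons of the larger circles 142, 134 and 130 nt. The asterisk, which goes with a longer last exon, stood on 49.7%, 39.5%, 36.4% and 34.5% of circles of 2, 3, 4 and 5 exons. Its part in these lengths was not tested. Across the whole set the median length was 731 nt, with the middle 50% between 528 and 1272 nt and a range of 109 to 13547 nt. The length was a multiple of 3 in 35.7% of circles.

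**Figure D2:**
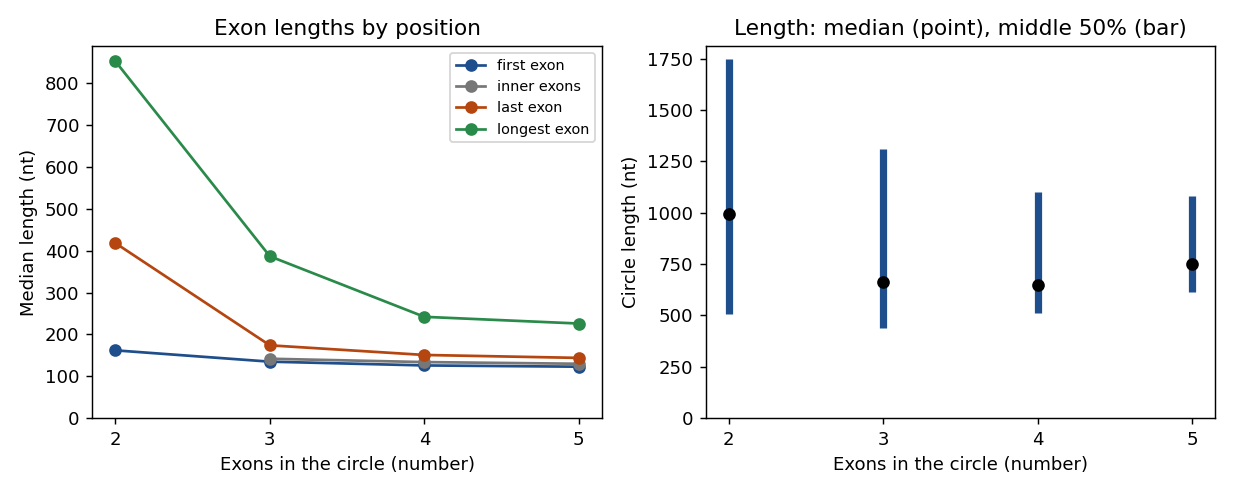
Left, median length (nt) of the first, inner, last and longest exon by the number of exons in the circle; right, circle length (nt) with the median as a point and the middle 50% as a bar. The last exon falls from 418 nt in 2-exon circles to 144 nt in 5-exon circles, while the first exon stays between 123 and 162 nt. Circles with an asterisk are included, and make up 49.7% of 2-exon and 34.5% of 5-exon circles.

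The circles spanned a median of 8453 nt of genome, and the intron between their exons had a median of 2126 nt. Their first base lay at a median of 50.6% of the way along the gene, and 11.7% of circles began within the first 10% of the gene. It lay further along in 2-exon circles (61.1%) than in 5-exon circles (45.6%). For comparison, the same median was 90.4% for single-exon circles and 41.3% for circles of 6 to 11 exons. Of the circles of 2 to 5 exons, 70.2% shared at least 1 end with another detected circle of any kind. Both ends were shared by 35.9%, each end with some other circle. Either end was shared by 24.2% of single-exon circles and 79.4% of circles of 6 to 11 exons. Most hosts were protein-coding (98.4% of circles), and 321 circles (1.45%) came from long non-coding RNA genes.

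Few circles were abundant. With 1 to 9 counts there were 19181 circles, which held 27.0% of the set's counts, whereas 12 circles with at least 1000 counts held 19.3%. Only 2367 circles (10.7%) were seen in all 4 libraries, and 10813 (48.9%) were seen in 1. A host gave a median of 3 such circles, and 1621 hosts (31.0%) gave 1. BIRC6, a very large inhibitor-of-apoptosis protein and ubiquitin ligase, gave the most, with 67 circles and 1101 counts. Hosts differed in how evenly counts were spread. QSER1, a glutamine- and serine-rich nuclear protein, had 45 circles but 97.2% of its counts on 1 of them. CENPF, a kinetochore protein, had 40 circles, and its leading circle held 8.87% of 124 counts. Over the 924 hosts with several such circles and at least 40 counts, the leading circle held a median of 45.8%.

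Before any comparison, the libraries were set side by side. Total counts were between 282737 and 556578, and 3 counts, the limit that a count of 0 allows, equalled between 0.539 and 1.06 per 100000. Amplified reads carry no molecular identifiers, so floors and counting intervals cover counting error only. Control library 1 stood apart: exon circles of all kinds took 70.9% of its counts against 84.9% to 85.7% in the others. In circles of 2 to 5 exons, 29.4% of its counts carried the asterisk, against 13.3% in control library 2 and 12.5% and 12.6% in the knockdowns. Over the 603 circles of the set with at least 40 counts, Pearson's r of log2 values was 0.680 between controls and 0.919 between knockdowns, across circles that share libraries. No row named HNRNPL, so the knockdown rests on the labels. Of the line's known losses, RB1 and SMAD4 had no exon circle. EGFR, amplified in the line, had 48, 5, 3 and 2 (controls 1 and 2, then knockdowns 1 and 2, the order kept below). Circles were found for 4 of 7 epithelial markers (358, 358, 122 and 141 counts, mostly GRHL2), 1 of 7 mesenchymal markers (0, 0, 0 and 3) and 0 of 4 leukocyte markers; KRT7, KRT8 and KRT18 were at 0. In bulk RNA, fewer cells with a circle and less of it per cell cannot be told apart.

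Circles of 2 to 5 exons had a larger share of all counts in both knockdown libraries than in either control. The share was 11.3% and 12.3% in controls and 13.4% and 13.0% in knockdowns. Means were 11.8% ± 0.668 and 13.2% ± 0.228 (SD, n = 2), and the groups did not overlap (exact two-sided permutation test, p = 0.333, the smallest that 2 against 2 allows). Within exon circles alone the share was 16.0%, 14.4%, 15.6% and 15.2%, and here the groups overlapped (exact permutation test, p = 1). Without circles carrying an asterisk that share was 11.26%, 12.53%, 13.65% and 13.32%, with both knockdowns above both controls. On circles with at least 10 counts it was 10.25%, 10.86%, 12.04% and 11.59%, also without overlap. The groups still overlapped without the 10 circles of highest total count (13.6%, 12.1%, 11.9% and 12.1%). They also did with any number of named genes allowed (18.8%, 16.5%, 17.4% and 17.1%). Intron circles held 19.7%, 10.6%, 9.93% and 10.0% of counts, high in control library 1 and close together in the other libraries. Their part in the share of all counts was not tested beyond the change of denominator to exon circles. Without the 10 circles of highest total count, the share of all counts was 9.64%, 10.24%, 10.18% and 10.37%, and the groups overlapped. Leaving out these 10 or the circles with an asterisk was a choice made after seeing the data.

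Count-weighted median length was greater in the knockdown libraries, and this difference in the median was not seen without the 10 circles of highest total count. The count-weighted median length was 815 and 844 nt in controls and 1024 and 919 nt in knockdowns, with means of 829.5 ± 20.5 and 971.5 ± 74.2 nt (SD, n = 2; exact permutation test, p = 0.333). Circles over 2000 nt held 15.9% and 16.7% of the set's counts in controls and 30.1% and 25.0% in knockdowns. Leaving out the 10 circles with the highest total counts, a choice made after seeing the data, gave median lengths of 821, 789, 809 and 782 nt, with overlapping groups. Circles over 2000 nt then held 11.9%, 11.2%, 15.6% and 13.1%, with both knockdowns still above both controls. The 10 most abundant circles of each library held 16.2% and 16.9% of the set's counts in controls and 24.3% and 20.9% in knockdowns (exact permutation test, p = 0.333).

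**Figure D3:**
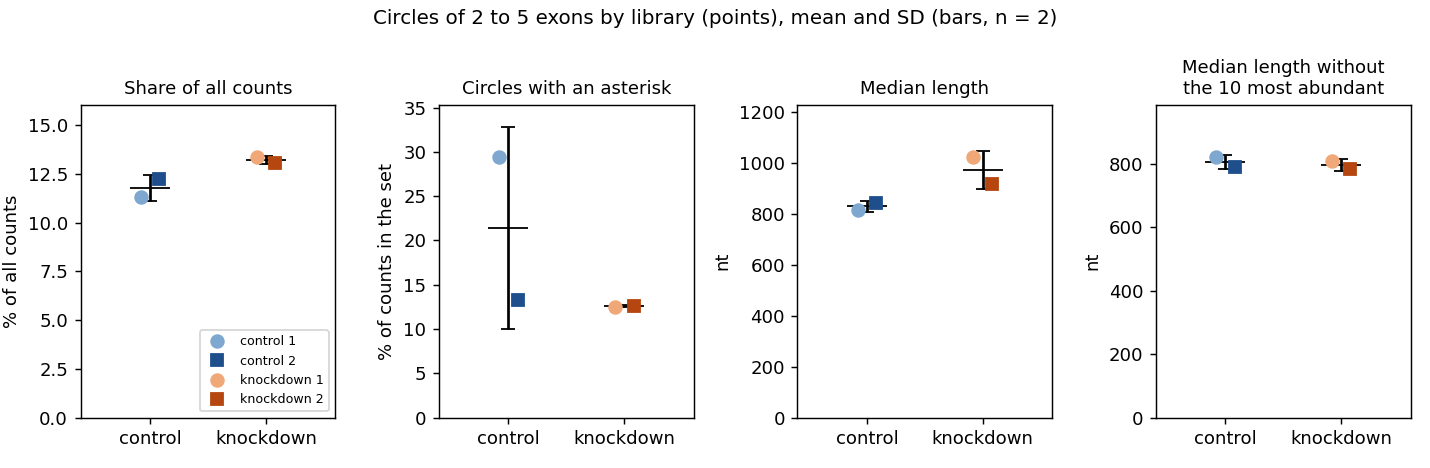
Values of each library (points) with group mean and SD (bars, n = 2) for circles of 2 to 5 exons: share of all counts (percent), share of the set's counts on circles with an asterisk (percent), and count-weighted median length (nt) with and without the 10 circles of highest total count. Median length is 815 and 844 nt in controls and 1024 and 919 nt in knockdowns, and between 782 and 821 nt in every library without those 10 circles.

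Exon number itself differed little. The count-weighted mean was 3.48, 3.51, 3.44 and 3.49 exons, with overlapping groups (exact permutation test, p = 0.667). Circles of 2 exons held 27.1%, 24.9%, 27.0% and 25.9% of the set's counts, and circles of 5 exons 25.9%, 26.0%, 24.5% and 26.0%, both with overlap. Circles of 3 exons held 23.7% and 24.9% in controls and 26.3% and 24.9% in knockdowns. Circles of 4 exons held 23.4% and 24.2% against 22.2% and 23.2%. In these 2 sizes the groups did not overlap, by margins smaller than the difference within either group (exact permutation test, p = 0.333 each). Over the 13 library values tested this way, no Benjamini-Hochberg adjusted p of these exact permutation tests was under 0.619. The number of different circles expected at 282737 counts was 9559 and 8057 in controls and 8154 and 8369 in knockdowns, which overlapped (exact permutation test, p = 1).

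Ranked by counts per 100000 averaged over the libraries, which gives a slightly different 10 from total counts, QSER1 had the highest mean level over the 4 libraries and ARHGAP5 the next. The QSER1 circle (chr11:32927157-32935435, plus strand, 3 exons, 3968 nt, shared run AG) had 2586, 2573, 2371 and 2235 counts. Per 100000 these were 547, 462, 839 and 572, so both knockdowns lay above both controls but knockdown 2 was close to control 1. On the log2 scale the difference was 0.40 ± 0.35 (SE). Tested by edgeR's quasi-likelihood method, with Benjamini-Hochberg adjustment over every circle fitted, it gave an adjusted p = 0.581.

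The circle of ARHGAP5, a GTPase-activating protein, covered chr14:32090502-32117287 on the plus strand with 2 exons and 4033 nt. It had 216, 1389, 3115 and 3555 counts, or 45.7, 249.6, 1102 and 910.3 per 100000. The controls differed from each other more than the knockdowns did, and all knockdown values lay above. The log2 fold change of 2.83 ± 0.69 (SE) did not pass (edgeR adjusted p = 0.171), while DESeq2 gave an adjusted p of 9.05e-05. It was 2.18 or 4.31 without control 1 or control 2.

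The opposite pattern was found in ARHGAP12, another GTPase-activating protein. Its circle (chr10:31908172-31910563, minus strand, 2 exons, 794 nt, shared run ggt) had 3735, 3183, 774 and 991 counts. The means were 681 ± 155 and 264 ± 14.1 per 100000 (SD, n = 2), without overlap. The log2 fold change was -1.47 ± 0.36 (SE). It did not pass in edgeR's quasi-likelihood test (adjusted p = 0.177) and passed in DESeq2 (adjusted p = 0.00591).

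Further long circles of few exons had higher values in knockdowns. ZNF644, a zinc finger protein, gave a circle of 2 exons and 3644 nt with 31, 190, 582 and 618 counts (log2 fold change 3.21 ± 0.68, SE, adjusted p = 0.141 in edgeR, and 2.58 or 4.63 without control 1 or control 2). CASP8AP2, a protein needed for histone mRNA processing, gave one of 3 exons and 5476 nt with 81, 469, 512 and 441 counts. Per 100000 that circle had 17.1, 84.3, 181 and 113. A circle of the zinc finger gene ZNF782 with 2 exons and 2516 nt, marked with an asterisk, had 160, 412, 323 and 545 counts. These circles, with QSER1 and ARHGAP5, are the 5 of the 10 most abundant that exceeded 2000 nt, and none of them passed edgeR's adjusted threshold.

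Of the remaining abundant circles, some differed mainly in control library 1 and others differed little between the groups. BARD1, the partner of BRCA1, gave a circle of 3 exons and 1204 nt with 365, 1505, 711 and 1111 counts, or 77.3, 270.4, 251 and 284 per 100000. ZZZ3, a subunit of a histone acetyltransferase complex, had 32.6, 130.3, 115 and 118 per 100000 on 4 exons. In both, control 1 was low and the other 3 libraries were near each other. ZNF532 was level, with means of 64.1 ± 5.76 and 62.8 ± 2.79 per 100000 (SD, n = 2). PDE8A, a cyclic AMP phosphodiesterase, had 62.2, 50.7, 71.1 and 63.5, with the knockdowns just above control 1. The PDE8A junction has the shared run AGGTaa, with 5 exons and 767 nt between its ends.

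Circle by circle, 2919 of the 22100 circles (13.2%) had the 10 counts needed for a test. They held 73.0% of the set's counts. A circle found in 1 group only needed those counts there to be tested, so shares over the tested circles describe these alone. At an adjusted p of 0.05, edgeR's quasi-likelihood test called 0 of the 2919, where it called 0% of 21576 circles of all kinds, and the smallest adjusted p was 0.0880. At an unadjusted p under 0.05, 306 were higher (10.5%, beside 9.29% of all tested circles) and 113 lower (3.87%, beside 4.26%), against a background of 13.6% in either direction. DESeq2 called 167, of which 149 were higher and 18 lower, beside 5.03% of all circles. In edgeR the log2 fold changes of the 2919 tested circles had a median of -0.34, and those of all 21576 circles fitted -0.41. It was -1.62 for 481 tested circles with an asterisk, the mark that was frequent in control library 1, and -0.20 for 2438 without it.

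Without control 1 or control 2 the same test called 630 or 803 circles of the set, beside 28.2% or 43.4% of all circles fitted, and without either knockdown library 0 (0%). Leaving out 1 control leaves the spread to be estimated from the knockdown pair, so the lone control is assumed to vary as little as that pair. The biological coefficient of variation over all circles fitted differed between the pairs, at 0.905 for controls and 0.138 for knockdowns.

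Among the 603 circles with at least 40 counts, both knockdowns lay above both controls for 193 and below for 168 (27.9%), beside 29.7% and 28.9% of all circles of that depth. At least 4-fold by group means and without overlap, 96 were higher (15.9%, beside 12.2%) and 25 lower (4.15%, beside 3.16%). These shares lie near the background and are no result about circles of 2 to 5 exons.

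The circles with the smallest p-values are given next as values, because none passed the adjusted threshold in the edgeR fit above. With other settings some did. In DESeq2 the adjusted p was 6.8e-14 for the first higher circle, of ATRX, and 0.00027 for the first lower one, of USP54. With at least 40 counts edgeR gave these 2 an adjusted p of 0.0108 and 0.0209, where 11.4% of all circles passed. Among those higher in knockdowns, the circle of ATRX, a chromatin remodeller of heterochromatin, led (chrX:77681520-77685006, minus strand, 2 exons, 3142 nt). Its 9, 14, 91 and 151 counts correspond to 2.21 ± 0.432 and 35.4 ± 4.58 per 100000 (SD, n = 2). The groups were far apart relative to their spread (log2 fold change 3.94 ± 0.39, SE; edgeR adjusted p = 0.0880).

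SENP6, a protease that removes SUMO, gave a circle of 3 exons and 621 nt (chr6:75702645-75711416, plus strand) with 15, 38, 235 and 295 counts (log2 fold change 3.96 ± 0.41, SE; edgeR adjusted p = 0.0880). PPP6R3, a regulatory subunit of protein phosphatase 6, gave a circle of 2 exons and 384 nt that was at 0 in both controls and had 66 and 89 counts in knockdowns. Against 3 counts in each control it was at least 39.3-fold higher. A circle of 3 exons from PMS1, a mismatch repair protein, had 0, 1, 32 and 62 counts, a ratio of 144 with a 95% counting interval of 25.2 to 5734. All of these circles had ordinary AG and GT ends with no asterisk.

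The other circles of this group came from KITLG, the ligand of the KIT receptor (2, 4, 40 and 59 counts on 5 exons), and ESCO1, which acetylates cohesin (1, 3, 32 and 59 counts on 4 exons). SH3RF1, a ubiquitin ligase and signalling scaffold, had 1, 4, 40 and 65 counts on a circle of 2 exons and 372 nt, and SRFBP1, a binding partner of serum response factor, 5, 4, 50 and 84 on 3 exons. Control values of these 4 circles are near the floor of 3 counts, and their fold changes rest on those few counts.

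Among circles lower in knockdowns, the one with the smallest p came from USP54, of the ubiquitin-specific protease family, with 57, 139, 10 and 11 counts (log2 fold change -2.55 ± 0.45, SE; edgeR adjusted p = 0.112). ZKSCAN1, a zinc finger gene known for an abundant circle of a pair of exons, gave that kind of circle here (chr7:100023419-100024307, plus strand, 2 exons, 668 nt, shared run AGG). It had 214, 164, 25 and 31 counts, or 37.4 ± 11.2 and 8.39 ± 0.640 per 100000 (SD, n = 2; edgeR adjusted p = 0.135).

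PIAS2, a SUMO ligase, had 107, 192, 19 and 32 counts on 2 exons, and CRIM1, a transmembrane protein that binds bone morphogenetic proteins, 198, 328, 52 and 70 on 3. SEPSECS, the enzyme that completes selenocysteine on its transfer RNA, had 41, 50, 5 and 6 on 5 exons. The circles of TMTC4 (20, 31, 1 and 2) and GRHL2, a transcription factor of epithelial cells (24, 35, 3 and 4), were thinner, and CRLF3 (14, 17, 0 and 0) was at least 3.29-fold lower against the floor. The CRLF3 circle ended in GC in place of GT.

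**Figure D4:**
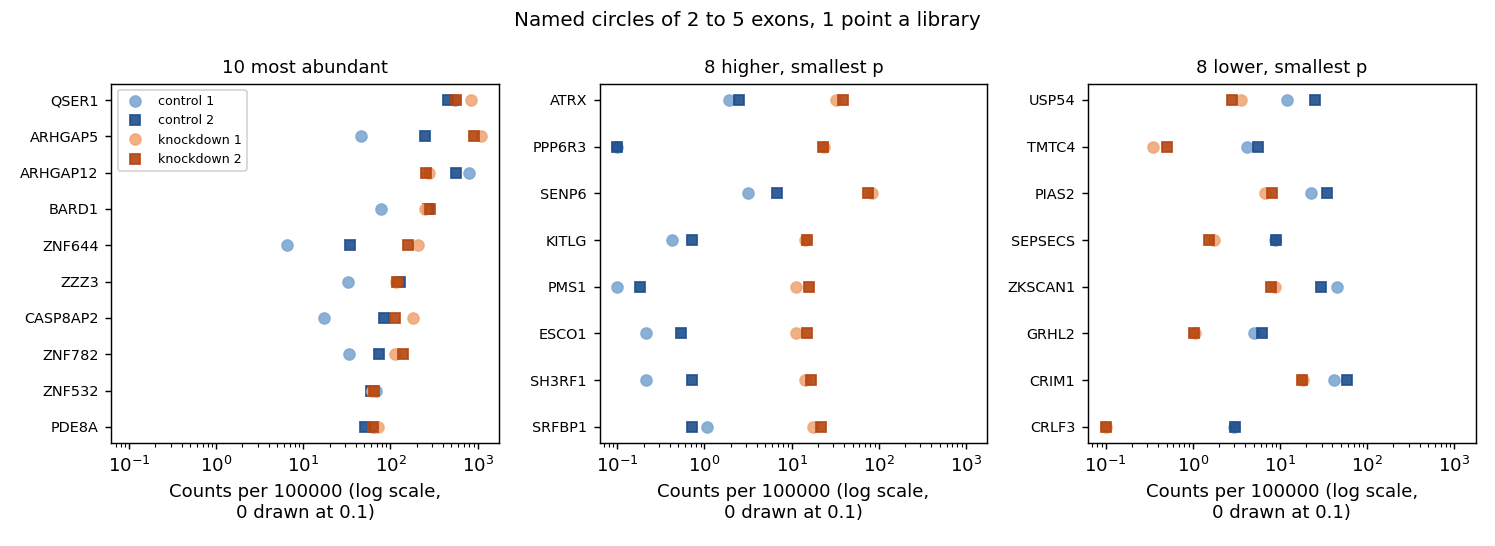
Counts per 100000 (log axis, 0 drawn at 0.1) of the 10 most abundant circles of 2 to 5 exons and of the 8 with the smallest p in each direction, 1 point a library. ARHGAP5 goes from 45.7 and 249.6 in controls to 1102 and 910.3 in knockdowns, ARHGAP12 lies lower in both knockdowns, and ZNF532 is level.

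Counts were then summed per host gene over its circles of 2 to 5 exons, beside the same sums for 1, 6 to 11 and 12 or more exons. In edgeR's quasi-likelihood test, 28 of 2585 hosts passed an adjusted p of 0.05 on these sums, all higher in knockdowns. The background over all 7323 sums was 1.23% (1.22% higher and 0.0137% lower), against 1.08% here. At an unadjusted p under 0.05, 259 hosts were higher (10.0%, beside 10.2%) and 113 lower (4.37%, beside 4.74%; in either direction the background was 14.9%). Of these hosts 69.6% were higher. That share was 52.4% with library-size scaling, 58.5% with normalization on exon circles and 49.1% with no filter. Library-size scaling lowered the median log2 fold change of all sums from -0.15 to -0.40. It left 8 of the 28 past the threshold (background 0.246%), DESeq2 size factors 20 (0.71%) and exon-circle normalization 21 (0.888%). Without either knockdown library 0 of the 28 passed (0%). Without control 1 or control 2 all 28 did, where 25.1% or 35.1% of all sums passed.

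Of the 28, 27 are given by what their proteins do, an order chosen after their values were seen and not tested. Genes of chromosome segregation and the cytoskeleton come first. PDS5A, a cohesin regulator, had 23, 62, 247 and 410 counts, or 8.00 ± 4.43 and 96.2 ± 12.5 per 100000 (SD, n = 2). The log2 fold change was 3.85 ± 0.50 (SE; edgeR adjusted p = 0.0256), or 3.29 or 4.51 without control 1 or control 2, and 87.7% of the counts lay on 1 of its 19 circles. The mitotic kinesins KIF11 and KIF20B had 1, 2, 25 and 28 and 4, 10, 39 and 57 counts. AGTPBP1, which trims glutamate from tubulin tails, rose from 3.85 ± 0.654 to 40.0 ± 3.11 per 100000 (SD, n = 2; adjusted p = 0.0179 in edgeR) over 16 circles.

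SPAG16, a protein of the sperm axoneme, had 2, 9, 107 and 188 counts. The centrosomal genes CEP70 (8, 30, 122 and 183) and AKAP9 (11, 11, 45 and 42) also passed, as did NCKAP1 of the actin-regulating WAVE complex (2, 3, 29 and 53). Control 1 and control 2 differed several-fold in SPAG16 and CEP70, yet both lay far below the knockdowns.

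Genes of chromatin, replication and repair follow. ATRX had 12, 29, 135 and 206 counts, or 3.88 ± 1.89 and 50.2 ± 3.53 per 100000 (SD, n = 2), and a log2 fold change of 3.94 ± 0.47 (SE; edgeR adjusted p = 0.0179). ZGRF1, a DNA helicase, rose from 1.67 ± 0.331 to 21.4 ± 2.29 per 100000 (SD, n = 2; adjusted p = 0.0179 in edgeR). USP1, the enzyme that removes ubiquitin from FANCD2, had 1, 11, 90 and 137 counts. NPAT, a coactivator of histone genes, had 59, 85, 167 and 197, a smaller log2 fold change of 2.23 ± 0.36 (SE) on more control counts. The helicase ASCC3 had the smallest change of the 28, with 32, 40, 68 and 110 counts (2.16 ± 0.38, SE, adjusted p = 0.0459 in edgeR). YEATS2, a reader subunit of a histone acetyltransferase complex, had 11, 14, 52 and 51.

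The others belong to protein turnover, trafficking, translation and signalling. CUL5, a cullin of ubiquitin ligases, had 8, 29, 94 and 156 counts, and the ubiquitin ligases MID1 and SH3RF1 had 0, 1, 16 and 19 and 1, 5, 41 and 65. DNAJC3 and UGGT2, both of the endoplasmic reticulum, had 17, 36, 109 and 131 and 5, 15, 33 and 80. XPO1, the main nuclear export receptor, had 6, 23, 71 and 114 over 26 circles, and EXOC6 of the exocyst 1, 2, 18 and 36. The RNA-binding protein LARP4 had 15, 13, 48 and 64, and the helicase DHX29, which helps ribosomes scan structured leaders, 4, 4, 21 and 27. KITLG (16, 7, 51 and 69), SRFBP1 (7, 4, 53 and 88), SANBR (4, 6, 31 and 39) and LYPLAL1 (0, 0, 15 and 15, at least 7.79-fold higher against the floor) are the others described. In all 28 the knockdown values lay above both controls, but the hosts were selected on these same values. Controls of MID1, KIF11, EXOC6 and NCKAP1 were at or under the floor of 3 counts. Some sums were mostly 1 circle: the leading circle held 98.2% of counts in SH3RF1 and 94.1% in SRFBP1, against 22.7% in KIF20B. These SH3RF1 and SRFBP1 circles are among those above that did not pass on their own in edgeR.

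**Figure D5:**
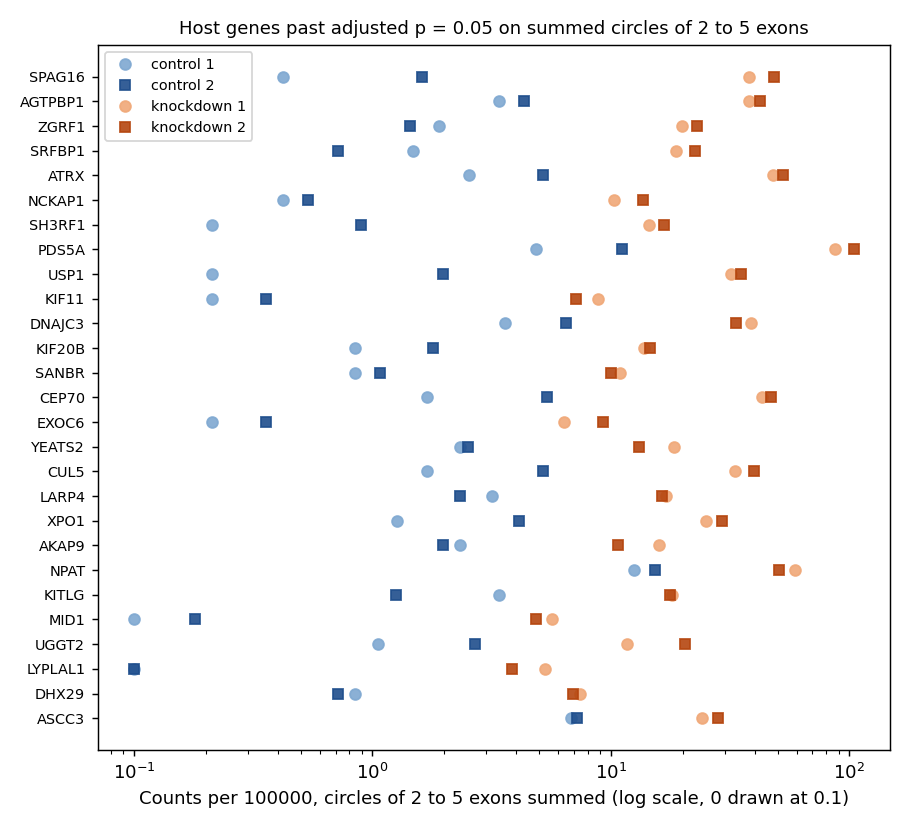
Counts per 100000 summed over circles of 2 to 5 exons (log axis, 0 drawn at 0.1) for 27 of the 28 host genes past an adjusted p of 0.05 in edgeR, ordered by p, 1 point a library. Both knockdown points lie to the right of both control points in every gene drawn, and the genes were selected on these same values.

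With other settings some hosts passed in the lower direction: 28 with no filter (0.737% of all sums), 8 in voom (0.314%) and 4 in DESeq2 (0.178%). With library-size scaling 0 did (0%). In the edgeR fit above no host passed in that direction. The smallest p among lower hosts was that of ARGLU1, a splicing coactivator, with 30, 26, 1 and 1 counts (adjusted p = 0.0767 in edgeR; a ratio of controls over knockdowns of 18.3). ZKSCAN1 had 225, 167, 25 and 33 (log2 fold change -1.92 ± 0.42, SE, adjusted p = 0.0809 in edgeR), USP54 57, 144, 10 and 11, SEPSECS 61, 71, 10 and 9, and CRLF3 14, 20, 0 and 0. In SEPSECS the controls were nearly equal, at 12.8 ± 0.110 per 100000 against 2.92 ± 0.871 (SD, n = 2).

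The other exon circles of the 28 hosts were looked at beside them. For 24 of the 28 these could be fitted, and their log2 fold change was above 0 in 23, with a median of 2.24 against 3.49 for the circles of 2 to 5 exons. The hosts were selected on the latter, so its being larger is no finding. XPO1 shows the size of the difference in depth: its other circles had 597, 1526, 2307 and 3648 counts. KITLG was the exception, with 233 and 238 counts of other circles in controls and 87 and 120 in knockdowns.

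Whether circles of 2 to 5 exons changed unequally to the rest of their gene was tested for 2202 genes with edgeR's F test per gene. None passed an adjusted p of 0.05 (0% of genes), and the smallest adjusted p was 0.162. At an unadjusted p under 0.05 there were 109 genes with a relative difference above 0 (4.95%) and 89 below (4.04%), together 8.99%. A likelihood ratio test called 35 genes (1.59%) and voom 4 (0.182%). KITLG was among the 5 genes with the smallest p. ARGLU1 had its few-exon circles at 30, 26, 1 and 1 and the others at 33, 79, 68 and 81. SEPTIN10, a septin, showed 7, 6, 19 and 38 against 404, 667, 208 and 305. POLK, a translesion polymerase, showed 0, 0, 8 and 12 against 18, 9, 0 and 2. DHX29 showed 84, 92, 45 and 68 counts on its other circles. In KITLG, ARGLU1, SEPTIN10 and POLK the fitted log2 changes of the 2 kinds of circle had opposite signs, and in DHX29 the other circles were near level (0.07 against 3.26). None of the 5 passed the test.

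Host lists were described by counts and medians beside a median of -0.14 for all 2585 hosts. Of 35 DNA damage response genes, 31 gave circles of 2 to 5 exons and 26 were tested. None passed the adjusted threshold, 8 had an unadjusted p under 0.05, all higher (30.8%, beside 10.0% of all 2585 hosts), and the median was 0.75. ATM, the kinase that senses double-strand breaks, had 14, 15, 33 and 52 counts (log2 fold change 2.39 ± 0.43, SE, adjusted p = 0.0512 in edgeR). FANCM, a helicase of the Fanconi pathway, had 1, 5, 14 and 33, REV3L, the catalytic subunit of a translesion polymerase, 29, 28, 57 and 59, and ATR, the replication stress kinase, 9, 10, 22 and 24. POLK, MSH3, BRCA2 and WRN were the other 4. Most counts of the list lay in BARD1, with 477, 1828, 855 and 1333 and no group separation per 100000. Circle by circle, 55 circles of the list were tested, and their median was -0.003, beside -0.34 for all 2919 tested circles of the set. Of the 55, 26 lay above 0 and 29 below. At an unadjusted p under 0.05 in edgeR, 9 were higher (16.4%, beside 10.5%) and 0 lower, and none passed the adjusted threshold.

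Of 36 chromatin regulators, 30 were tested. ATRX rose (3.33% called, beside 1.08% of all hosts), 4 had an unadjusted p under 0.05, all higher (13.3%, beside 10.0%), and the median was -0.06, or 0.14 without control library 2. SUZ12, of the Polycomb complex, had 1, 7, 17 and 36 counts, BAZ2B 2, 7, 8 and 16, and ARID2, of a SWI/SNF complex, 7, 31, 24 and 34. Values in the other direction came from NSD1, a histone methyltransferase, with 161, 302, 66 and 83 (adjusted p = 0.396 in edgeR).

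Of 30 hosts of widely studied circles, 27 gave a circle of 2 to 5 exons and 22 were tested. XPO1 rose (4.55% called, beside 1.08%). At an unadjusted p under 0.05, 3 were on the higher side (13.6%, beside 10.0%) and 1, ZKSCAN1, on the lower (4.55%, beside 4.37%), shares near the background, with a median of 0.17 that was -0.06 without control library 1. RHOBTB3 had 8, 7, 15 and 32 counts and MAN1A2 9, 21, 19 and 33. BIRC6 was level per 100000 at its leading circle, with 22.2, 37.4, 26.9 and 25.9. FBXW7, whose circle of 2 exons and 620 nt had 10, 48, 6 and 15 counts, and SHPRH, with 5, 29, 9 and 14 on 4 exons, differed several-fold between the controls.

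Of 25 genes for RNA-binding proteins tied to back-splicing, 14 were tested on these sums, with a median of -0.96 and 13 of 14 below 0. None passed, and DHX9, a helicase that unwinds paired RNA, was the only one with an unadjusted p under 0.05 (7.14%, beside 4.37% lower), with 14, 14, 1 and 2 counts (adjusted p = 0.287 in edgeR). The list rests on few counts, 510 over 118 circles. HNRNPC had 41, 18, 7 and 11, SFPQ 11, 11, 2 and 4, and KHDRBS1 31, 6, 0 and 4, while ADAR (14, 0, 0 and 1) and NONO (10, 0, 0 and 1) were seen almost wholly in control library 1. Without control library 1 the list's median was -0.49.

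The leading circle of a listed gene was looked at where it had at least 40 counts. NSD1 had 115, 214, 43 and 52 counts on a circle of 2869 nt, with a log2 fold change of -1.17 ± 0.34 (SE; edgeR adjusted p = 0.227). EZH2, the methyltransferase of the Polycomb complex, had 16, 28, 6 and 4 on 3 exons and 370 nt, and BRCA2, which loads the recombinase at breaks, 13, 48, 13 and 17 on 4 exons. In the other direction XPO1 had 0, 6, 19 and 33 on 5 exons (chr2:61492035-61494091) and MAN1A2, a mannosidase of the Golgi, 1, 4, 16 and 32. LIG4, the ligase of end joining, had 49, 0, 0 and 1 on a marked circle ending in GC, so that control library 1 held nearly all of it. None of these circles passed the adjusted threshold in edgeR.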

How the data were processed

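Circular RNA was measured in 4 nanopore libraries. The authors deposited whole-number raw counts per back-splice position, with type, splice motif, exon blocks and gene in each row. The caller CIRI-long is named in the rows, and its settings are not given in the sources used here. The build GRCh38.p14 and DESeq2 are named in the submitters' processing notes, with no role stated. Library totals were 472428, 556578, 282737 and 390547. Members and gene lists were chosen with earlier results of these data known, and the shares of circles over 2000 nt and with an asterisk were added after seeing the data.

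All circles with at least 10 counts were fitted together with edgeR 4.0.16 (R 4.3.3; TMM, glmQLFit with its default dispersion method, glmQLFTest, Benjamini-Hochberg, threshold 0.05), knockdown over control. The default and the newer dispersion method had both been seen in earlier results. Host sums by exon-number class were fitted likewise, and member use was tested with diffSpliceDGE. Single values were set against the group labels in an exact permutation test (two-sided), whose smallest p is 0.333 for 2 against 2. All p-values measure only the spread between these libraries. Alternatives used limma 3.58.1 (voom) and DESeq2 1.42.0, and scripts were tested on simulated data. Named circles were the 10 most abundant by mean counts per 100000, the 8 per direction with the smallest p and no overlap, 5 hosts per direction by the same rule, 5 genes of the use test, and list members with at least 40 counts; the other hosts past the threshold were named after their values were seen. 1 of these host genes and 1 marker of the line are not reported here. No genome sequence was used, so CA repeats beside the back-splices were not analysed here.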

Additional observations from a re-analysis of the deposited data

How the results depend on the processing

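In place of 0 circles of 2 to 5 exons, the adjusted threshold was passed by 75 under no filter (0.248% of all circles), 230 under 5 or more counts in each of 2 libraries (12.1%), 91 under 40 or more counts (11.4%), 50 in voom (1.37%) and 167 in DESeq2, and by 0 to 803 without 1 library. At an unadjusted p under 0.05, 419 circles became 686 under no filter and 190 under 40 or more counts, and 133 to 886 without 1 library. The median log2 fold change of -0.34 became -1.09 with no filter, -0.038 under 5 or more counts in each of 2 libraries and -0.072 under 40 or more, and ranged from -0.44 to 0.020 without 1 library. Stricter filters test fewer circles; the cause was otherwise not tested. The 28 hosts became 8 with library-size scaling, 135 under no filter (2.81% of all sums), 51 under 5 or more counts in each of 2 libraries (2.8%), 70 in voom (2.79%) and 65 in DESeq2 (2.44%), and 0 to 672 without 1 library. The test of use gave 4 genes with voom, 35 with a likelihood ratio test and 0 to 195 without 1 library.

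List medians without 1 library ranged from -0.063 to 0.57 for widely studied hosts, -1.32 to -0.49 for RNA-binding proteins, -0.23 to 0.14 for chromatin regulators and 0.49 to 0.93 for the DNA damage response. The second was -0.52 with voom. With library-size scaling, exon-circle normalization and no filter the chromatin median was -0.31, -0.26 and -0.28 and the DNA damage median 0.48, 0.54 and 0.46, the last being 0.64 with DESeq2.

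For values per library, knockdown minus control is given. Without the 10 circles of highest total count, the share of all counts differed by 0.336 points (1.42 with them), that of exon circles by -0.836 (0.215), mean exon number by 0.070 (-0.029), median length by -9.5 nt (142), the share over 2000 nt by 2.82 points (11.2), and the shares of 2, 4 and 5 exons by -2.92, 0.685 and 1.69 points (0.439, -1.08 and -0.686). Without circles carrying an asterisk the first 2 were 2.24 and 1.59, the share of the 10 most abundant 4.24 (6.04) and circles at equal depth 278 (-546). On circles with at least 10 counts the exon-circle share was 1.26, median length 241 nt and the share over 2000 nt 14.3. The first 2 of these choices were added after seeing the data. Without control 1 the asterisk share differed by -0.736 points, against -8.81 with it. Low counts limit the rest: 19181 of 22100 circles had under 10.

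Replicate numbers are shared by the groups, but the labels tie no number to a common culture or day, and deviations of same-numbered libraries correlated at 0.0483. With a replicate block, 242 circles (7.51% of all) and 86 hosts (3.37%) passed, and 0 genes in the test of use. Between same-numbered libraries, the share of all counts differed by 2.05 and 0.787 points and median length by 209 and 75 nt.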
